A study of Mus musculus with 6 samples.

Results

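The genes described here encode the machinery that brings proteins into mitochondria, folds them, trims and degrades them, and shapes the organelle by fusion and fission. They were chosen by name. A gene was a member if a probe set of the array carried a single gene symbol that begins with Timm or Tomm, or that is one of 23 listed names of mitochondrial chaperones, proteases and dynamics proteins. This gave 44 members among the 12393 genes with a single-symbol probe set: 15 Timm genes, 7 Tomm genes and 22 of the 23 listed genes. The listed prohibitin Phb, and likewise Tomm5 and Tomm6, were represented only by probe sets that also carry a second gene's symbol and are not analysed here.

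Most mitochondrial proteins are encoded in the nucleus, made in the cytosol and imported through the outer membrane translocase (TOM). Proteins with a cleavable presequence then pass the inner membrane through the TIM23 complex, pulled in by a motor built on the matrix Hsp70, while metabolite carriers are handed by the small TIM chaperones to the TIM22 complex. In fat exposed to cold, mitochondria supply the heat made by brown and beige adipocytes, and their protein-folding and quality-control systems work on the proteins that arrive.

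White adipose tissue RNA of 8-week-old mice on a mixed C57BL6 and 129 background was profiled after 4 days at 4 °C, on 1-colour Affymetrix arrays, 1 per sample. YY1aKO mice (3 samples) carried floxed alleles of Yy1, a zinc-finger transcription factor, together with Adiponectin Cre, which is active in adipocytes, so that other cells of the tissue keep the gene. Control mice (3 samples) carried the same floxed alleles and, per the design text, no Cre is named for them. All mice were cold exposed, no sample at another temperature was analysed here, and the Cre transgene and the loss of Yy1 cannot be told apart. The labels do not say whether each sample came from a separate animal, so that p-values measure the spread between samples, and they disagree on the depot, which is epididymal or visceral in some fields and subcutaneous in others.

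Values are linear array intensities, comparable between arrays for 1 probe set but not between genes. Yy1 itself had intensities of 373, 323 and 315 in YY1aKO and 1785, 1846 and 1596 in controls, a log2 fold change of -2.37 ± 0.11 (SE) with a limma adjusted p of 0.0021. Control replicate 2 stood apart: its Pearson correlation with each other array, taken across the 7436 tested genes (not independent replicates), was 0.812 to 0.890, and that of controls 1 and 3 was 0.977. The summed signal of 5 measured epididymal genes (10 listed, 2 of the 5 over the intensity filter) was 154 to 166 in YY1aKO and 145 to 803 in controls 1 and 3, but 74628 in control 2. The summed signal of 6 white adipocyte genes, which mark the labelled tissue, was 70945 to 77623 in YY1aKO, 87476 to 89710 in controls 1 and 3 and 59274 in control 2. Results are therefore given with and without control 2. The white adipocyte genes did not move alike, and none of the 6 passed the adjusted threshold with 6 arrays. Retn read 3171, 8225 and 8440 in YY1aKO and 19778, 10247 and 18733 in controls, without overlap. Without control 2 it alone passed, as lower (log2 fold change -1.67, limma adjusted p = 0.024). Fabp4, Lipe and Pparg were above all controls on every YY1aKO array. Adipoq was below controls 1 and 3 on every YY1aKO array, and Lep overlapped. In whole tissue, fewer cells of a type and less RNA per cell cannot be told apart.

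The promoters of the members were searched for the motif of the deleted factor and for those of known regulators of mitochondrial genes. RefSeq promoters (GRCm38.p6, 250 bases before to 50 after each start) were available for 39 of the 44 members. A gene was counted if any of its promoters held the motif. The YY1 motif, searched as AANATGGC on both strands, was found for 4 of these 39 members (10.3%). It was found for 11.0% of the 6073 tested genes with a promoter and 6.96% of all 27025 genes with a promoter. Counted per promoter, it was in 6.05% of all 32851 promoters. The 4 stretches are shown because they are the places where these letters occur, in capitals, each written 5′ to 3′ on the gene's own strand. In Timm50 and Timm44 the motif lies just after the start, and in Mfn1 and Phb2 it lies upstream, with 2 copies in opposite orientation in Phb2.
Timm50 (GRCm38.p6, chr7:28312017-28312136, minus strand): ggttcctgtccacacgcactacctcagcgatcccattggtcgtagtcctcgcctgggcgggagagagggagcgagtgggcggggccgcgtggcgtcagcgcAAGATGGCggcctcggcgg
Timm44 (GRCm38.p6, chr8:4275876-4275995, minus strand): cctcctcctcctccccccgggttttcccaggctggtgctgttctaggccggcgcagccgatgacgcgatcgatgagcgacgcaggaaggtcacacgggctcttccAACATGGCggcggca
Mfn1 (GRCm38.p6, chr3:32529312-32529431, plus strand): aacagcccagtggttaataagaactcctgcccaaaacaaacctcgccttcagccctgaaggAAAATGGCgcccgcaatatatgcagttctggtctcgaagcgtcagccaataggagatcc
Phb2 (GRCm38.p6, chr6:124712089-124712208, plus strand): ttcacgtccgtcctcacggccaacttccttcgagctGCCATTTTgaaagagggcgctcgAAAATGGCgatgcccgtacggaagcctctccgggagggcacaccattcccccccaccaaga

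The binding motif of GABP, a regulator of nuclear genes for mitochondrial proteins, was searched as CCGGAAG on both strands and was found for 22 of 39 members (56.4%). It was present for 21.9% of tested genes with a promoter, for 9.93% of all genes with a promoter and in 8.86% of all promoters. Among the members higher in YY1aKO it was present in 5 of 9 (55.6%), and among the other members in 17 of 30 (56.7%). The motif of NRF1, another such regulator, searched as CGCATGCG, was found for 3 of 39 members (7.69%), Clpx, Opa1 and Timm13. It was present for 4.82% of tested genes with a promoter, for 2.07% of all genes with a promoter and in 1.87% of all promoters. Promoters of 3 members that were higher in YY1aKO, Tomm22, Tomm70a and Timmdc1, are shown with GABP letters in capitals, together with the 215 bases between the start of Hspe1 and 1 of the 2 listed starts of Hspd1, the chaperonin genes that are read in opposite directions from this shared stretch. Where 2 copies on opposite strands overlap, they appear as 1 longer run of capitals, and the shared stretch counts for both chaperonin genes. A match is a description of the sequence and not a measured binding site.
Tomm22 (GRCm38.p6, chr15:79670768-79670897, plus strand): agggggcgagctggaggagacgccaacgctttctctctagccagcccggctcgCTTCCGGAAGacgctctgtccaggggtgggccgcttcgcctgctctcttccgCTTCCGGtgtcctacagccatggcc
Tomm70a (GRCm38.p6, chr16:57121614-57121743, plus strand): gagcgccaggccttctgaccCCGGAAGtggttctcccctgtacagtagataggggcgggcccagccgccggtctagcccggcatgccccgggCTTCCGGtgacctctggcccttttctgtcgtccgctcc
Timmdc1 (GRCm38.p6, chr16:38522634-38522823, minus strand): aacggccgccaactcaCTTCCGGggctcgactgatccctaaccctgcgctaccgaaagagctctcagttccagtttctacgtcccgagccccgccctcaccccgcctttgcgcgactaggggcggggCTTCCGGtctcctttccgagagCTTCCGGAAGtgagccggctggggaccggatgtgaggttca
Hspe1 (GRCm38.p6, chr1:55087933-55088147, plus strand): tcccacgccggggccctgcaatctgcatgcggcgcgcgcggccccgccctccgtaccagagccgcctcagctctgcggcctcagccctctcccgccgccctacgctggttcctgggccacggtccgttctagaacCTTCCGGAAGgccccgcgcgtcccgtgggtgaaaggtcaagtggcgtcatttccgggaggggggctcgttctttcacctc

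Of the 43 members bright enough to be tested, 9 were higher in YY1aKO, 0 were lower and 34 did not pass the threshold (limma, Benjamini-Hochberg adjusted p under 0.05 over all 7436 genes tested). The 9 were Tomm22 and Tomm70a of the outer membrane, Timm9, Timm10b and Timmdc1, the proteases Lonp1, Spg7 and Oma1, and the mitofusin Mfn1. They make up 20.9% of the members tested. Over all genes tested, 20.7% passed in either direction, 12.9% higher and 7.8% lower in YY1aKO. At an unadjusted p under 0.05, 10 of the 43 members were higher and 2 lower, against 1654 and 1118 of the 7436 genes tested. The median log2 fold change of the 43 members was 0.17, against 0.06 over all genes tested. Of the members 29 were above 0 and 14 below, and of all genes tested 4122 were above 0 and 3314 below. None of the members changed by as much as 1 log2 unit, which 594 of the tested genes did. Fold changes of the 9 lay between 1.28-fold for Tomm22 and 1.94-fold for Lonp1. The YY1aKO and control values did not overlap for 14 members (32.6%; 12 higher, 2 lower), against 47.5% of all genes tested. Timm8a2, a paralogue of Timm8a1, was the member below the filter, at 7.74 to 9.66 over the 6 arrays.

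The count of members past the threshold moved with single arrays. It was 18 without control 2 (13 higher, 5 lower), 5 without control 1, 1 without control 3, 1 without YY1aKO 1, and 0 without YY1aKO 2 or YY1aKO 3, where 11 and 10 members had an unadjusted p under 0.05. The count over all 7436 genes tested also moved, from 1538 with 6 arrays to 3353 when control 2 was dropped. Dropping control 1 gave 1336 genes and dropping control 3 gave 394. For YY1aKO arrays 1, 2 and 3, dropped in turn, the counts were 253, 33 and 24. With control 3 or a YY1aKO array dropped, the fall was thus not particular to the members. Without control 2, the share of members was 30.2% higher and 11.6% lower, where 25.5% of all genes were higher and 19.6% lower, and the median was 0.13, against 0.03 over all genes. All 9 members higher with 6 arrays were also higher without control 2, and 9 further members passed only then. When control 2 and 1 further array were left out, 10 to 14 members passed, where 31.2% to 36.9% of all genes did. Of the 9 members higher with 6 arrays, 5 to 8 passed in these fits. With controls 2 and 3 left out, 6 members were higher and 5 lower. With no filter on dim genes 5 of 44 members passed, against 1344 of all 12393 genes, and Tomm22, Spg7, Oma1 and Mfn1 did not. After renewed quantile normalization 7 members were higher, without Tomm22 and Mfn1, and Clpp was lower. Of the 7436 genes tested 922 were then higher and 567 lower.

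**Figure D1:**
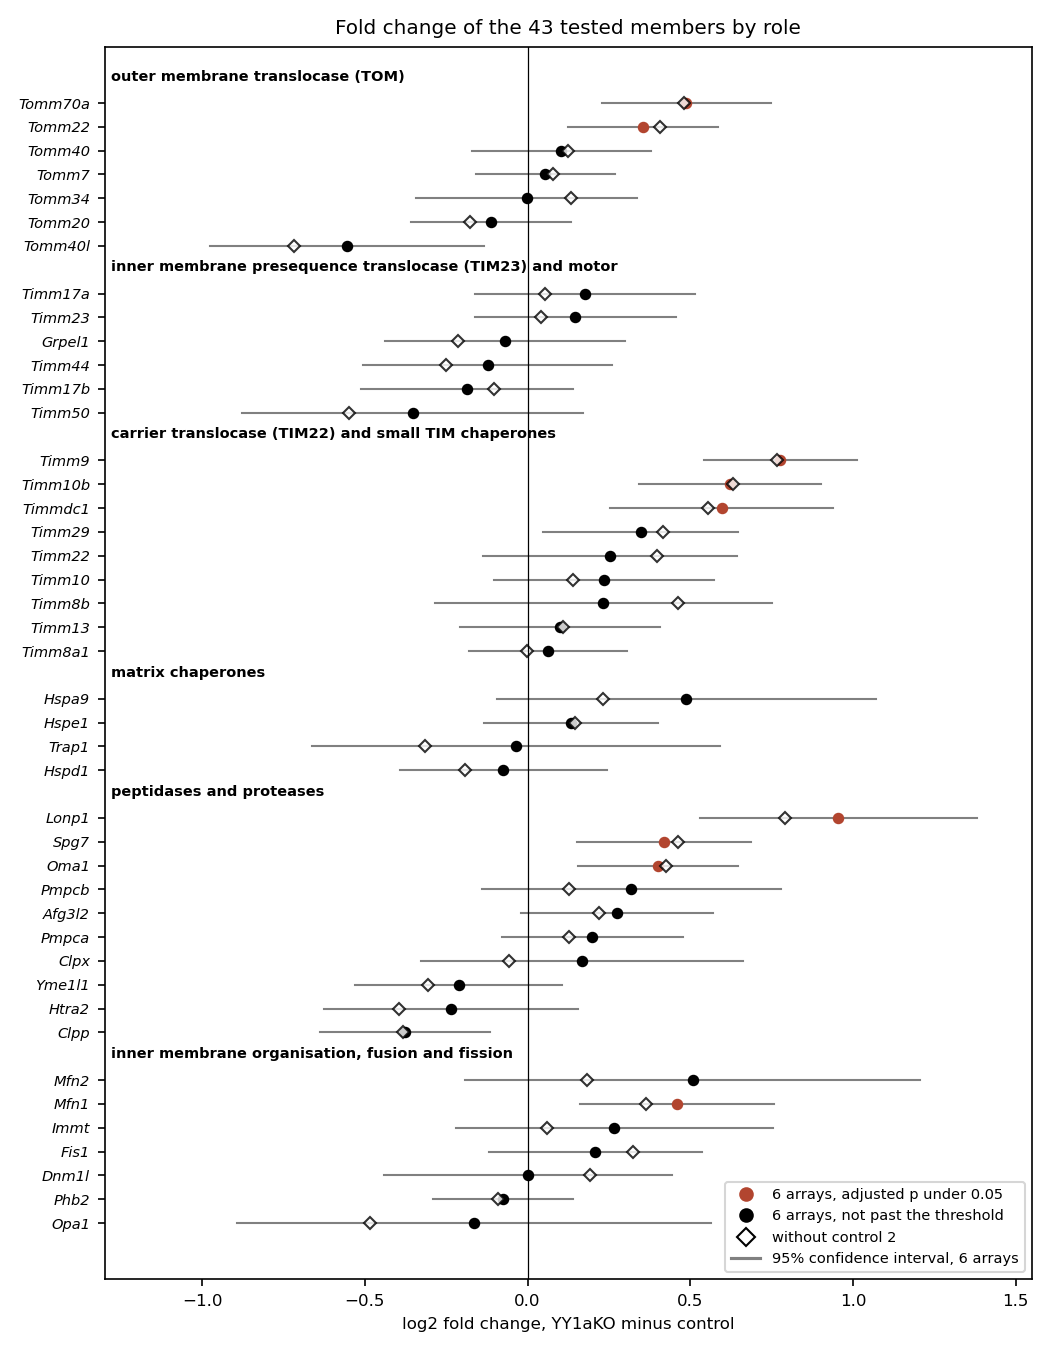
Log2 fold change (YY1aKO minus control, horizontal axis) of the 43 tested members grouped by role; circles give 6 arrays with 95% confidence intervals (grey lines), red circles the members past the adjusted threshold, and open diamonds the values without control 2. The 9 red circles all lie right of 0, between 0.35 and 0.96, and all 9 tested members of the TIM22 and small TIM group lie right of 0 with 6 arrays.

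In the outer membrane translocase, both higher members are import receptors, and the channel-forming subunit Tomm40 did not pass. Of 7 tested members 2 were higher (28.6%, against 12.9% of all genes tested), 0 were lower (1 at an unadjusted p under 0.05) and the median log2 fold change was 0.05. Tomm70a, the receptor for carrier precursors delivered by cytosolic chaperones, read 1067, 1027 and 1106 in YY1aKO and 841, 752 and 695 in controls. Every YY1aKO array was above every control array, and the receptor rose by 0.49 ± 0.11 (SE, n = 3 per group; adjusted p = 0.029, limma). Its other 3 probe sets also rose, so that the 4 sets of Tomm70a covered 0.44 to 0.79.

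Tomm22, the central receptor that joins TOM units, read 1709, 1813 and 1769 in YY1aKO and 1357, 1484 and 1302 in controls. The groups did not overlap, and the highest control value was that of control 2. Tomm22 rose by 0.35 ± 0.09 (limma adjusted p = 0.047, and 0.0091 without control 2), and its second probe set rose by the same 0.35. Tomm20, the receptor for presequences, read 6979, 7329 and 6730 in YY1aKO and 8067, 6932 and 7770 in controls. Its groups overlapped only through control 2, and its log2 difference was -0.11 with a 95% interval from -0.36 to 0.13. Of the 4 other bright probe sets of Tomm20, 2 read lower in YY1aKO without overlap, at -0.22 and -0.30 (limma adjusted p = 0.15 and 0.057), and the remaining sets were at -0.16 and -0.09. Tomm40, the pore, read 200, 222 and 245 in YY1aKO and 215, 212 and 193 in controls, with overlapping groups and a difference of 0.10 (interval -0.17 to 0.38). Its paralogue Tomm40l read 264, 277 and 269 in YY1aKO and 493, 317 and 399 in controls. All YY1aKO values of Tomm40l were below all controls, the difference was -0.56 ± 0.17 (limma adjusted p = 0.071), and without control 2 it fell by 0.72 on the log2 scale (adjusted p = 0.0047). Tomm7, a small subunit, was at 0.05. Tomm34, a cytosolic co-chaperone of import, was at -0.00 with 6 arrays, at 0.13 without control 2 and at 0.04 when every array was given the same median.

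None of the 6 members of the TIM23 complex and its motor passed in limma with 6 arrays, where 20.7% of all genes tested passed in either direction. Of these members 0 had an unadjusted p under 0.05, and the median log2 fold change was -0.10. Pam16, a motor subunit that is not a member by name, is given with the partners below. Control 2 was below both other controls for 5 of the 6, with a group median of -0.38 for the log2 value of control 2 minus that of the others. Timm23, the channel, read 2930, 3131 and 3333 in YY1aKO and 3102, 2440 and 2979 in controls. These ranges overlapped, and the difference was 0.15 with an interval from -0.16 to 0.46. Timm44, which tethers the motor to the channel and carries the YY1 letters shown above, read 791, 771 and 932 in YY1aKO and 1049, 753 and 928 in controls, a difference of -0.12 (interval -0.51 to 0.26) between overlapping groups.

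Timm50, the receptor of the complex on the intermembrane space side and the second TIM23 gene with the YY1 letters, read 368, 439 and 486 in YY1aKO and 691, 417 and 567 in controls. Control 2 lay within the YY1aKO range and the other controls above it. The difference was -0.35 ± 0.21 (limma adjusted p = 0.28) with 6 arrays, and without control 2 Timm50 fell by 0.55 on the log2 scale (adjusted p = 0.029). The channel paralogues Timm17a and Timm17b were at 0.18 and -0.19, and Grpel1, the nucleotide exchange factor of the matrix Hsp70, was at -0.07.

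In the carrier translocase and small TIM group, 3 of the 9 tested members were higher (33.3%, against 12.9% of all genes tested). All 9 had a fold change above 0, as did 4122 of the 7436 genes tested, and the group's median log2 fold change was 0.25. None was lower, 0 at an unadjusted p under 0.05. Timm9, which forms with Timm10 the hexameric chaperone that escorts hydrophobic carriers across the intermembrane space, read 178, 194 and 197 in YY1aKO and 118, 109 and 105 in controls. The lowest YY1aKO array was well above the highest control, and Timm9 rose by 0.78 ± 0.10, or 1.71-fold (limma adjusted p = 0.0087). It was the sole member past an adjusted p of 0.01 with 6 arrays. A second, dim probe set of Timm9, at 37.6 to 52.1 and below the filter, had a difference of 0.01.

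Timm10b, which docks the small TIM hexamer on the TIM22 complex, read 2497, 2961 and 2976 in YY1aKO and 1932, 1840 and 1694 in controls. Its groups were separate and it rose by 0.62 ± 0.11, or 1.54-fold (limma adjusted p = 0.019); its 2 other bright probe sets gave 0.82 and 0.61. Timmdc1, a membrane protein that acts in the assembly of respiratory complex I and belongs here by its name, read 334, 332 and 421 in YY1aKO and 268, 225 and 224 in controls. YY1aKO 3 was the highest array, all 3 were above the controls, and Timmdc1 rose by 0.60 ± 0.14 (adjusted p = 0.035, limma).

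The partner of Timm9 in the hexamer did not pass: Timm10 was at 0.24 ± 0.14, with an interval from -0.10 to 0.57 that includes 0. The channel protein Timm22 read 620, 749 and 728 in YY1aKO and 513, 713 and 544 in controls, and its metazoan partner Timm29 read 735, 877 and 814 in YY1aKO and 643, 697 and 569 in controls. For both genes control 2 was the highest control, inside the YY1aKO range for Timm22 and below it for Timm29. Without control 2, Timm22 (0.40), Timm29 (0.42) and the small TIM Timm8b (0.46) were higher in YY1aKO as well, with limma adjusted p of 0.028, 0.025 and 0.012. In that fit 6 of the 9 (66.7%) were higher, against 25.5% of all genes tested. With 6 arrays Timm22, Timm29 and Timm8b were at 0.25, 0.35 and 0.23. A second bright probe set of Timm29 was at 0.12 with overlapping groups (limma adjusted p = 0.45, 6 arrays). The remaining small TIMs, Timm13 and Timm8a1, were at 0.10 and 0.06, and Timm8a1 at -0.00 without control 2.

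**Figure D2:**
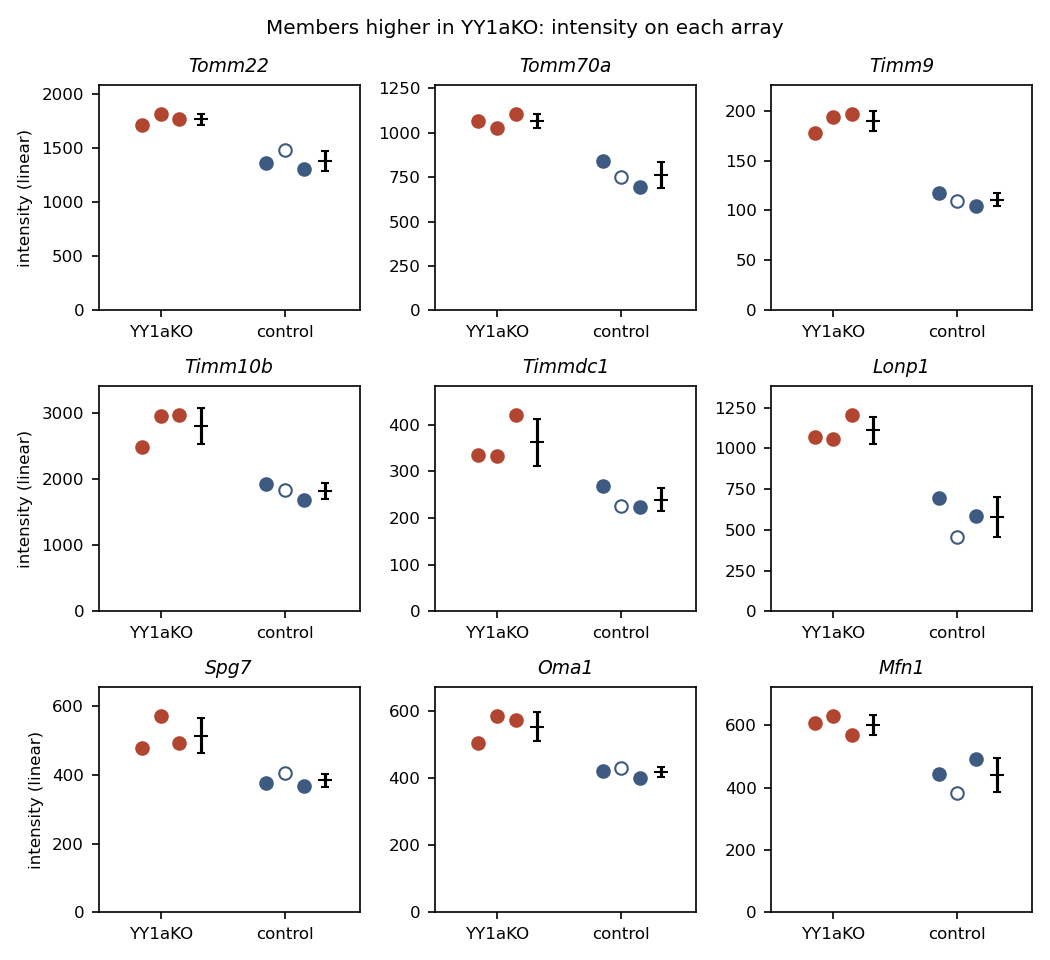
Linear intensity on each array for the 9 members higher in YY1aKO, with YY1aKO on the left and control on the right; points are arrays (the open point is control 2) and the black marks give the mean ± SD of 3 arrays. In every panel the lowest YY1aKO point lies above the highest control point, with the widest gap relative to level for Lonp1 (1059 against 698) and Timm9 (178 against 118).

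None of the 4 matrix chaperones that fold imported proteins passed in limma, where 20.7% of all genes tested passed in either direction. At an unadjusted p under 0.05 the count was also 0, and their median log2 fold change was 0.05. Hspa9, the matrix Hsp70 at the core of the import motor, read 3129, 2827 and 3534 in YY1aKO and 2759, 1576 and 2605 in controls. All YY1aKO arrays were above all controls, by little above control 1 and by much above control 2, and the difference of 0.49 ± 0.24 had an adjusted p of 0.19 (limma). Without control 2 it was 0.23 (adjusted p = 0.14).

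Hspd1 and Hspe1 encode the chaperonin Hsp60 and its lid Hsp10 from the shared promoter printed above. Hspd1 read 3788, 3679 and 4046 in YY1aKO and 4480, 3434 and 4283 in controls, a difference of -0.07 (interval -0.39 to 0.24). Hspe1 read 2857, 2722 and 3277 in YY1aKO and 2531, 2738 and 2791 in controls, a difference of 0.13 (interval -0.13 to 0.40). Both groups overlapped for each gene, and the difference between the 2 fold changes was -0.21 (two-sided exact permutation p = 0.3, 3 against 3 samples). Trap1, the Hsp90 of mitochondria, was at -0.04 with a wide interval from -0.66 to 0.59, at -0.31 without control 2 and at 0.01 when every array was given the same median. Over the 4 chaperones the log2 value of control 2 minus that of the others had a median of -0.56.

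Among the peptidases and proteases was the largest rise of any member with 6 arrays, that of Lonp1, the ATP-dependent protease that clears damaged and surplus proteins of the matrix. Of 10 members tested in this group 3 were higher (30%, against 12.9% of all genes tested), 0 were lower (1 at an unadjusted p under 0.05), and the median log2 fold change was 0.24. Lonp1 read 1067, 1059 and 1205 in YY1aKO and 698, 456 and 587 in controls. The lowest array of all was control 2, but each YY1aKO array was also above controls 1 and 3. Lonp1 rose by 0.96 ± 0.17, or 1.94-fold (limma adjusted p = 0.018), and by 0.79 without control 2 (adjusted p = 0.0038).

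Spg7 (paraplegin) and Afg3l2 are the subunits of the m-AAA protease, which works on the matrix face of the inner membrane. Spg7 read 477, 571 and 494 in YY1aKO and 376, 406 and 368 in controls. The groups were separate, and Spg7 rose by 0.42 ± 0.11 (limma adjusted p = 0.045). Afg3l2 was at 0.27 ± 0.12 (adjusted p = 0.16, limma), with every YY1aKO array above the controls by a small margin. Oma1, the stress-activated protease that cleaves Opa1, read 503, 584 and 571 in YY1aKO and 422, 431 and 400 in controls. These did not overlap either, and Oma1 rose by 0.40 ± 0.10 (limma adjusted p = 0.040). Yme1l1, the i-AAA protease that cleaves Opa1 at another site, was at -0.21, and the others of its 3 probe sets were at 0.13 and -0.32.

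Clpp, the peptidase of the matrix ClpXP protease, read 950, 1032 and 1113 in YY1aKO and 1438, 1325 and 1255 in controls. All YY1aKO values lay below all controls, with a difference of -0.38 ± 0.11 that narrowly missed the threshold (adjusted p = 0.057, limma). It passed as lower without control 2 (-0.38, adjusted p = 0.031) and when the arrays were quantile normalized again (-0.41, adjusted p = 0.040). A second bright probe set of Clpp was at -0.31 with overlapping groups (limma adjusted p = 0.15). Clpx, the unfoldase partner of Clpp, read 959, 928 and 1003 in YY1aKO and 1016, 630 and 988 in controls. Control 2 alone stood out for Clpx, whose difference was 0.17 with 6 arrays and -0.06 without control 2.

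Htra2, a serine protease of the intermembrane space, read 282, 289 and 273 in YY1aKO and 389, 265 and 352 in controls, a difference of -0.24 with control 2 as the lowest array of all. Without control 2 it fell by 0.40 on the log2 scale (limma adjusted p = 0.013). The subunits of the presequence-cleaving peptidase, Pmpca and Pmpcb, were at 0.20 and 0.32 and did not pass. The second probe set of Pmpca was at -0.23.

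**Figure D3:**
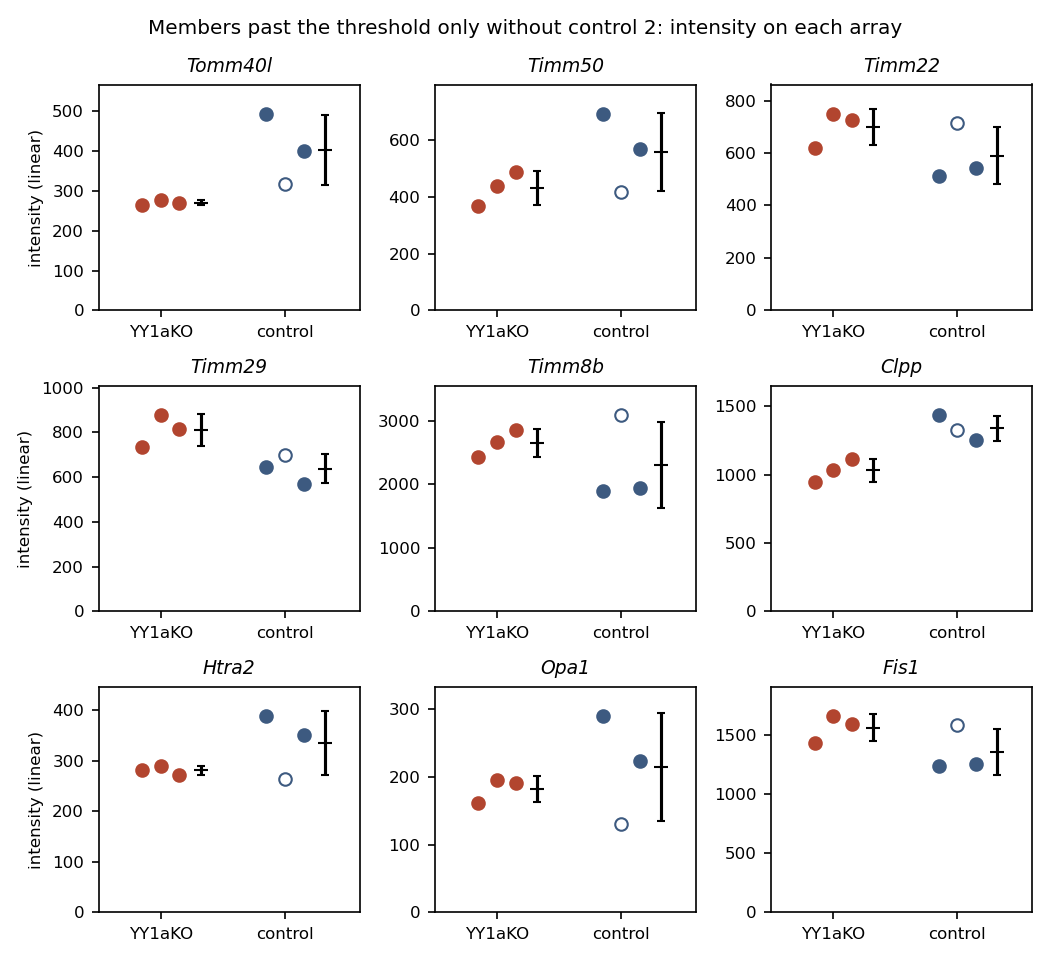
Linear intensity on each array for the 9 members that passed the adjusted threshold only when control 2 was left out, YY1aKO on the left and control on the right; points are arrays, the open point is control 2, and the black marks give the mean ± SD of 3 arrays. For Timm22, Timm8b and Fis1 control 2 lies among or above the YY1aKO points, and for Htra2 and Opa1 it lies below all of them.

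Of 7 members of membrane organisation, fusion and fission tested, 1 was higher, Mfn1 (14.3%, against 12.9% of all genes tested). None was lower, 0 at an unadjusted p under 0.05 (limma), and the median log2 fold change was 0.21. Mfn1, a GTPase that fuses outer membranes, read 607, 630 and 568 in YY1aKO and 443, 384 and 493 in controls. The groups did not overlap and Mfn1 rose by 0.46 ± 0.12 (limma adjusted p = 0.048). Its second bright probe set gave 0.60. Mfn2, the other mitofusin, read 2027, 1962 and 1820 in YY1aKO and 1853, 869 and 1567 in controls. Control 2 was the lowest array, control 1 lay within the YY1aKO range, and the difference was 0.51 ± 0.29 (limma adjusted p = 0.25), or 0.18 without control 2.

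Opa1, which fuses inner membranes and holds cristae closed, read 161, 196 and 190 in YY1aKO and 289, 131 and 223 in controls. Control 2 was the lowest array and the other controls the highest. The difference was -0.17 (interval -0.89 to 0.56) with 6 arrays, and without control 2 Opa1 fell by 0.48 on the log2 scale (limma adjusted p = 0.041). Immt, the core of the cristae-junction complex MICOS, read 1219, 1359 and 1278 in YY1aKO and 1331, 801 and 1142 in controls, with overlapping groups and a difference of 0.27 (interval -0.22 to 0.75). Phb2, a ring-forming scaffold of the inner membrane whose promoter holds 2 copies of the YY1 letters, read 1776, 1724 and 1859 in YY1aKO and 1966, 1842 and 1838 in controls. Its groups overlapped and its difference was -0.08 (interval -0.29 to 0.14), while its other 2 probe sets were at 0.12 and 0.09.

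Dnm1l, the dynamin that cuts mitochondria (Drp1), read 1281, 1405 and 1279 in YY1aKO and 1176, 1720 and 1135 in controls. YY1aKO lay above controls 1 and 3 and below control 2. The difference was 0.00 with 6 arrays (interval -0.44 to 0.44), 0.19 without control 2 and -0.04 after renewed quantile normalization. Fis1, an outer membrane protein linked to fission, read 1435, 1663 and 1593 in YY1aKO and 1236, 1583 and 1260 in controls, a difference of 0.21 that became 0.32 without control 2 (limma adjusted p = 0.033).

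Partners and paralogues were set against each other through the ratio of the pair on each array, which removes what the genes share. Of 9 pairs listed 8 could be measured. With 3 against 3 samples an exact permutation test cannot give a two-sided p below 0.1, and after adjustment over the 8 pairs the lowest p was 0.267, so no pair could pass. The largest differences in fold change were 0.61 for Oma1 minus Yme1l1, -0.54 for Clpp minus Clpx (-0.33 without control 2) and -0.43 for Opa1 minus Immt, each with an exact p of 0.1, the smallest possible. For these 3 pairs the ratio did not overlap between the groups. The ratios used the brightest probe set of each gene, and the other sets of Yme1l1 were at 0.13 and -0.32. For Mfn1 minus Mfn2 the difference was -0.05 with 6 arrays and 0.18 without control 2, and the SD of the ratio was 0.05 in YY1aKO and 0.44 in controls.

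Probe sets of one gene mostly pointed the same way. Of the 22 members for which more than 1 probe set was bright enough, 18 had the same sign in all of them, and the exceptions were Pmpca, Yme1l1, Phb2 and Dnm1l, none of which passed. No member was called by some but not all of its bright probe sets.

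Control 2 moved the members unevenly. It was below both other controls for 23 of 43 members (53.5%, against 48.6% of all genes tested). It was above both for 11 of the 43, against 2988 of the 7436 genes tested. Its distance from the mean of controls 1 and 3 ran from -0.97 for Mfn2 and -0.96 for Opa1 to 0.57 for Dnm1l and 0.69 for Timm8b on the log2 scale. The signs of Tomm34, Timm8a1 and Clpx turned when it was left out.

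**Figure D4:**
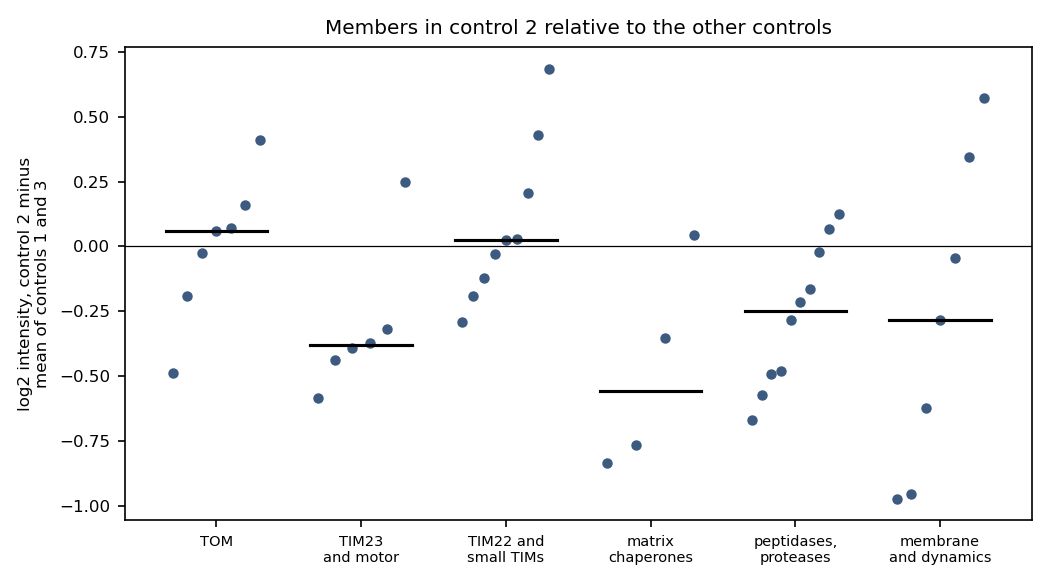
Log2 intensity of control 2 minus the mean of controls 1 and 3 (vertical axis) for the 43 tested members by role; points are genes and bars are group medians. Medians lie near 0 for TOM and TIM22 and at -0.38 for TIM23 and -0.56 for the matrix chaperones.

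Marker genes of several cell types were read beside the members. The summed signal of 7 brown adipocyte markers (3 over the filter) was 1476 to 2852 in YY1aKO, against 563 in control 2 and 1316 to 1490 in controls 1 and 3, so that the groups overlapped. Its members did not move alike. Ucp1, the defining gene of heat-making adipocytes and below the filter, read 118, 67.6 and 306 in YY1aKO and 24.7, 23.8 and 25.5 in controls. Ppargc1a, a coactivator of mitochondrial genes and also below the filter, read 22.3, 15.3 and 35 in YY1aKO and 163, 134 and 242 in controls, the opposite direction. Of the others, Cidea and Cox7a1 were higher in YY1aKO, and Dio2, Elovl3 and Cox8b did not pass. The endothelial sum was 1173 to 1565 in YY1aKO and 1620 to 1966 in controls 1 and 3, the fibroblast and progenitor sum was 20754 to 25242 in YY1aKO and 27900 to 29221 in controls 1 and 3, and the mesothelial sum was 2166 to 3768 in YY1aKO and 4393 to 4509 in controls 1 and 3. For macrophages it was 9560 to 11544 in YY1aKO and 11420 to 12113 in controls 1 and 3. In control 2 the endothelial sum was 672, the fibroblast and progenitor sum 19290, the mesothelial sum 2702 and the macrophage sum 6477. The summed signal of 4 skeletal muscle markers was 1210 to 2046 in YY1aKO and 201 to 266 in controls, and it rested on Acta1, since Ckm, Myh4 and Tnnt3 were below the filter in the tissue. The part of these shifts in the members' values was not tested.

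Among other genes of mitochondrial import and quality control, 15 of 57 tested were higher in YY1aKO (26.3%, against 12.9% of all genes tested) and 2 were lower (3.51%, against 7.8%). Their median log2 fold change was 0.22, against 0.06 over all genes tested. Without control 2, 24 were higher and 7 lower (42.1% and 12.3%, against 25.5% and 19.6% of all genes), and the count past the threshold, 17 with 6 arrays, was 3 without control 3, 4 without YY1aKO 1, and 0 without YY1aKO 2 or YY1aKO 3 (21 and 17 at an unadjusted p under 0.05). When control 3 or a YY1aKO array was dropped, the count over all genes tested fell as well, as given above. The other genes of import and quality control were listed by their roles as partners of the members, with earlier results of these data known. The shares therefore describe the list and are not independent support. Of the listed genes, 59 had a single-gene probe set.

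The group with the most genes past the threshold was that of the import and sorting partners. Of its 12 genes 7 were higher (58.3%, against 12.9% of all genes tested) and 0 lower (1 at an unadjusted p under 0.05, limma). Dnajc11, a J protein of the outer membrane linked to cristae complexes, read 385, 405 and 424 in YY1aKO and 204, 225 and 172 in controls. The groups were far from overlapping, and Dnajc11 rose by 1.02 ± 0.13 (limma adjusted p = 0.0087). Pam16, a J-like subunit of the TIM23 motor, rose by 0.80 ± 0.12. Mtx1 (metaxin), of the outer membrane sorting machinery, rose by 0.77 ± 0.09, and Dnlz, which keeps the matrix Hsp70 soluble, by 0.69 ± 0.11. Among the motor's own genes Pam16 was thus higher, while Hspa9, Timm44 and Grpel1 did not pass, as given above. The difference between the latter genes and Pam16 or the other partners was not tested.

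Of the matrix co-chaperones and the unfolded protein response, 2 of 11 were higher and 1 lower (18.2% and 9.09%, against 12.9% and 7.8% of all genes tested). Atf5, a transcription factor of the mitochondrial unfolded protein response, read 2297, 1554 and 2399 in YY1aKO and 872, 631 and 964 in controls. Every YY1aKO array was above every control, and Atf5 rose by 1.34 ± 0.24 (limma adjusted p = 0.017). Dnaja3, a J protein partner of the matrix Hsp70, rose by 0.81 ± 0.17. Clpb, a disaggregase of the intermembrane space, read 174, 167 and 210 in YY1aKO and 420, 245 and 324 in controls and fell by 0.82 on the log2 scale (limma adjusted p = 0.048). Among the genes that this response is known to induce, Lonp1 rose as given above, while Hspd1, Hspe1 and Clpp did not pass.

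Of 5 other peptidases 1 was higher (20%), and of 12 genes of inner membrane organisation 1 (8.33%), against 12.9% of all genes tested. Among the peptidases Immp1l, a subunit of the inner membrane peptidase, rose by 0.89 ± 0.10. In the second group Stoml2, a prohibitin-like scaffold, rose by 0.44 ± 0.09. Neither group had a lower gene in limma (1 and 0 lower at an unadjusted p under 0.05). Of 17 genes of fission, fusion and mitophagy, 4 were higher and 1 lower (23.5% and 5.88%, against 12.9% and 7.8% of all genes tested). The ubiquitin ligase Marchf5 (MITOL), which acts on fission and fusion proteins, read 9427, 8921 and 10230 in YY1aKO and 6213, 3191 and 4720 in controls and rose by 1.07 ± 0.25. Mtfr1, a fission regulator, rose by 0.78 ± 0.18, and Mff, the outer membrane receptor that recruits Dnm1l, by 0.63 ± 0.10. Pink1, the kinase that marks damaged mitochondria for removal, read 2025, 1926 and 1779 in YY1aKO and 2771, 2356 and 2831 in controls. It was below all controls on every YY1aKO array and fell by 0.47 on the log2 scale (limma adjusted p = 0.038). When every array was given the same median, Pink1 and Clpb did not pass (adjusted p = 0.053 and 0.055), which left 15 higher and 0 lower of the 57.

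**Figure D5:**
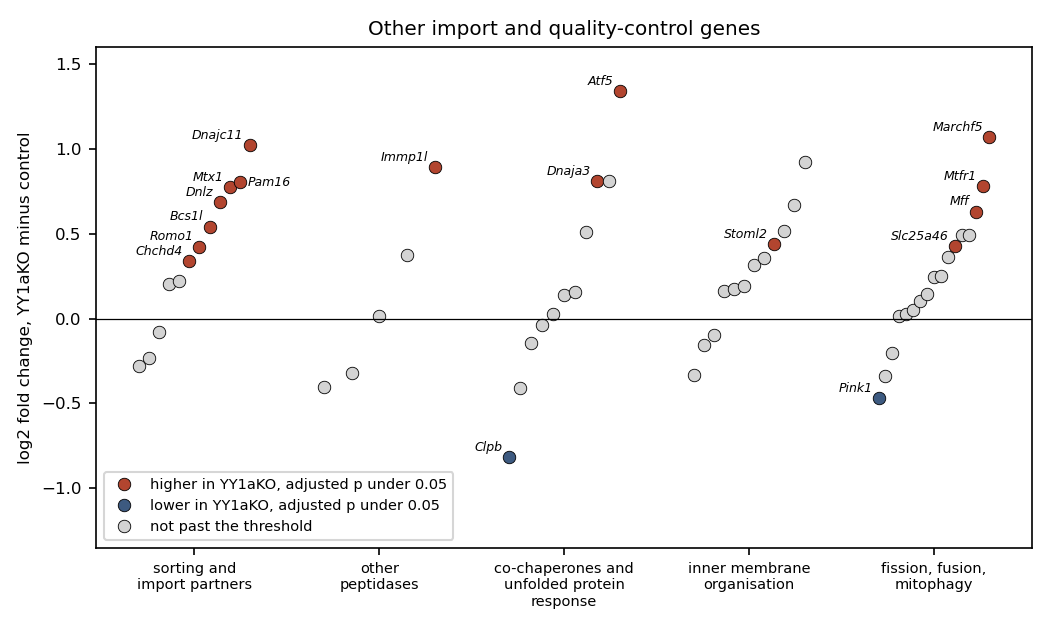
Log2 fold change (YY1aKO minus control, vertical axis) of the 57 other import and quality-control genes tested, by group; red points were higher and blue points lower in YY1aKO at an adjusted p under 0.05, and grey points did not pass. The red points reach 1.34 for Atf5 and cluster in the sorting and import partners (7 of 12), and the blue points are Clpb and Pink1.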

How the data were processed

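RNA of 6 white adipose tissue samples was measured, and the deposited intensity values, 1 per probe set and array, were made by the authors with RMA, per the submitters' processing notes. RMA usually gives log2 values, but these run from 6.09 to 30322 on a linear scale, with array medians of 135 to 141, so log2 was taken here. RMA makes array distributions alike, so a shift shared by most genes is not visible, and the number of arrays limits the precision. Probe sets carried 1 gene symbol (20380), several (691) or none (1555) in the platform annotation; of the first, 20351 matched the reference gene table by Entrez ID. The brightest probe set stood for each gene, and the brightest 60% of genes (mean intensity of at least 114) were tested with limma 3.58.1 (lmFit, eBayes; R 4.3.3), two-sided, with Benjamini-Hochberg adjustment and a threshold of 0.05. The script was tested on simulated data. Groups followed the genotype label. Members, lists, motifs and the rule for named genes (members called or central to each complex, and up to 4 called genes with the largest change per group of partners) were chosen with earlier results of these data known. Alternatives changed the probe sets, filter, scaling, variance model, replicate block, threshold and arrays; leaving out control 2 with a further array was added after seeing the data.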

Additional observations from a re-analysis of the deposited data

How the results depend on the processing

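The members' median log2 fold change stayed between 0.12 and 0.21 under every alternative, and all 9 called members kept their sign. The count of members past the threshold (9 of 43) became 16 of 76 with every probe set on its own, 5 with no filter, 14 with array weights (11 higher, 3 lower; the weights did not fully converge), 1 at an adjusted p under 0.01, 14 without control 2 and YY1aKO 1, and 0 to 18 with 1 array left out. Renewed quantile normalization gave 7 higher and 1 lower. The count of partner genes (17 of 57) became 3 at 0.01 and 0 to 31 with 1 array left out. That of all genes (1538) became 2367 of 11163 with every probe set, 1344 of 12393 with no filter and 2628 with array weights. It was 1489 after renewed quantile normalization, 212 at 0.01, 2347 at 0.10 and 24 to 3353 with 1 array left out. The replicate numbers showed no sign of pairing the samples: the deviations of same-numbered arrays correlated at -0.14, -0.12 and -0.12, lower than with any other number. Control 2 enters the deviations of all controls, so this check cannot settle whether samples were paired. With the number as a replicate block 0 members (11 at an unadjusted p under 0.05), 1 partner gene and 54 genes in all passed in limma.

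Of the members that did not pass, 9 turned sign in at least 1 alternative. With the mean of probe sets Pmpca was at -0.017, Phb2 at 0.045 and Dnm1l at -0.075; without _s_at and _x_at sets Phb2 was at 0.093; with quantile normalization Dnm1l was at -0.040; with equal medians Tomm34 was at 0.045 and Trap1 at 0.012; with array weights Tomm34 was at 0.11 and Clpx at -0.018. With 1 array left out Grpel1 ran from -0.22 to 0.019, Trap1 from -0.31 to 0.16, Opa1 from -0.48 to 0.089, Dnm1l from -0.11 to 0.19, Tomm34 from -0.078 to 0.13, Timm8a1 from -0.00055 to 0.11 and Clpx from -0.058 to 0.29. Tomm22, Spg7, Oma1 and Mfn1 lost their call with no filter, and Clpb kept it in 4 of 15 alternatives. The causes were not tested. Signal limits Timm8a2, Gdap1 and Mtfp1, which lay below the filter.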

Other observations

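Some genes of mitochondrial shape lay below the intensity filter, and they are given here after their values were seen. Gdap1, an outer membrane protein that promotes fission, read 86.5, 92.6 and 75.1 in YY1aKO and 18.6, 17.5 and 16.5 in controls. The groups were far apart on this dim probe set, and the log2 fold change was 2.27 ± 0.11 (limma adjusted p = 0.0027 in the fit with no filter). Mtfp1, an inner membrane protein that also acts in fission, read 61.1, 77.5 and 88.5 in YY1aKO and 152, 151 and 136 in controls. It fell by 0.97 on the log2 scale (limma adjusted p = 0.020 with no filter).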
